A study of Mus musculus with 6 samples.

Results

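The dystrophin glycoprotein complex and its homologue utrophin were followed through 8 genes, Dmd, Utrn, Sgca, Sgcb, Sgcd, Dag1, Dtna and Sspn, in regenerating mouse muscle. The members were chosen by name and found by matching Ensembl identifiers to mouse symbols. All 8 were present among the 52369 genes measured, and all 8 were among the 14788 genes tested, which had a mean of at least 1 FPKM (fragments per kilobase of gene length, adjusted for depth). RNA sequencing was done on 6 libraries of tibialis anterior muscle, a muscle of the lower leg, from C57BL/6 mice labelled as 6 weeks old. Both groups, 3 libraries each, shared an injury made at 5 weeks with 50 µl of 10 µM cardiotoxin, a venom toxin that destroys muscle fibres and lets them regenerate. Both also share a protocol in which 6.25 µg of pcDNA3.1 plasmid with an in vivo transfection reagent was injected repeatedly. The volume was 50 µl with 10% glucose. Later injections were on days 2 and 4, and muscle was taken on day 7. The L7 group carried a Linc-smad7 gain of function, Linc-smad7 being a long non-coding RNA, and the other group is labelled control. The labels do not say what the control plasmid carried, which cells took the plasmid up, whether animals were pooled, or whether each library is a separate animal. The p-values therefore measure only the spread between these libraries, which may be partly technical.

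Dystrophin, encoded by Dmd, is a long rod-shaped protein under the muscle fibre membrane that ties cytoskeletal actin to dystroglycan, and its loss causes Duchenne muscular dystrophy. Dystroglycan, the product of Dag1, spans the membrane and holds laminin outside the fibre through its sugar chains, while the sarcoglycans and sarcospan form a subcomplex beside it. Dystrobrevin and the syntrophins bind dystrophin on the inner side and carry signalling proteins. Utrophin is a close relative of dystrophin that lines the membrane of developing and regenerating fibres and is restricted mainly to neuromuscular and myotendinous junctions in mature fibres.

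The libraries held 19420012 to 24663153 reads in genes. L7 replicate 3 stood apart from the rest. Its correlations with the other libraries were 0.920 to 0.951, against 0.979 to 0.989 among the other 5, and its 10 most abundant genes took 14.1% of reads, against 6.57% to 8.40%. Mitochondrial genes took 4.20% of its reads, against 1.85% to 2.51% elsewhere. The median log2 difference of all genes tested was -0.15 on the FPKM as deposited and close to 0 (-0.0029) after rescaling by the median of ratios, so each difference below is read beside that shift. Control replicates 1 and 3 and L7 replicate 1 held 3185 to 4184 reads of Y-linked genes and the other libraries 0 to 2, so each group mixed the sexes unequally. No gene symbol in the annotation used here is Linc-smad7, and its own level was not used as a check of the labels. In bulk muscle, fewer cells of a type and less RNA per cell cannot be told apart.

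Dystrophin, dystroglycan, dystrobrevin and sarcospan transcripts each had every L7 value above every control value, by 0.28 to 0.39 on the log2 scale. Alpha-sarcoglycan had the largest mean difference, 0.71, most of it from L7 replicate 3. Beta- and delta-sarcoglycan differed by less than 0.10 in size, and utrophin lay far below the control range in L7 replicate 3. None of the 8 passed limma at an adjusted p of 0.05, and neither did any other gene (0% of 14788 called). Without adjustment, 873 genes had a limma p under 0.05, 1.65% of genes tested being higher in L7 at that level, and Dmd was the 1 member among them. Limma voom on recovered reads likewise called 0 genes after adjustment and 876 without it, with Dmd, Dag1 and Dtna among the latter. Groups that did not overlap with L7 higher were seen in 4 of 8 members and in 5.49% of all genes, and non-overlap with L7 lower in 0 members and 13.7% of all genes. After rescaling by the median of ratios the same 4 members did not overlap, against 9.41% of all genes. The median of the 8 log2 differences was 0.29, with 6 higher and 2 lower in L7, and it was 0.21 without L7 replicate 3 and 0.46 after rescaling. Within the male and within the female libraries, 7 of 8 members were higher in L7, the exception being Sgcb in the males and Utrn in the females. As deposited Utrn was higher in the males (0.038) and lower in the females (-0.43), which include L7 replicate 3. The males had L7 replicate 1 as their only L7 library and the females control replicate 2 as their only control. These counts were not tested, and the share of all genes higher within each sex was not computed.

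**Figure D1:**
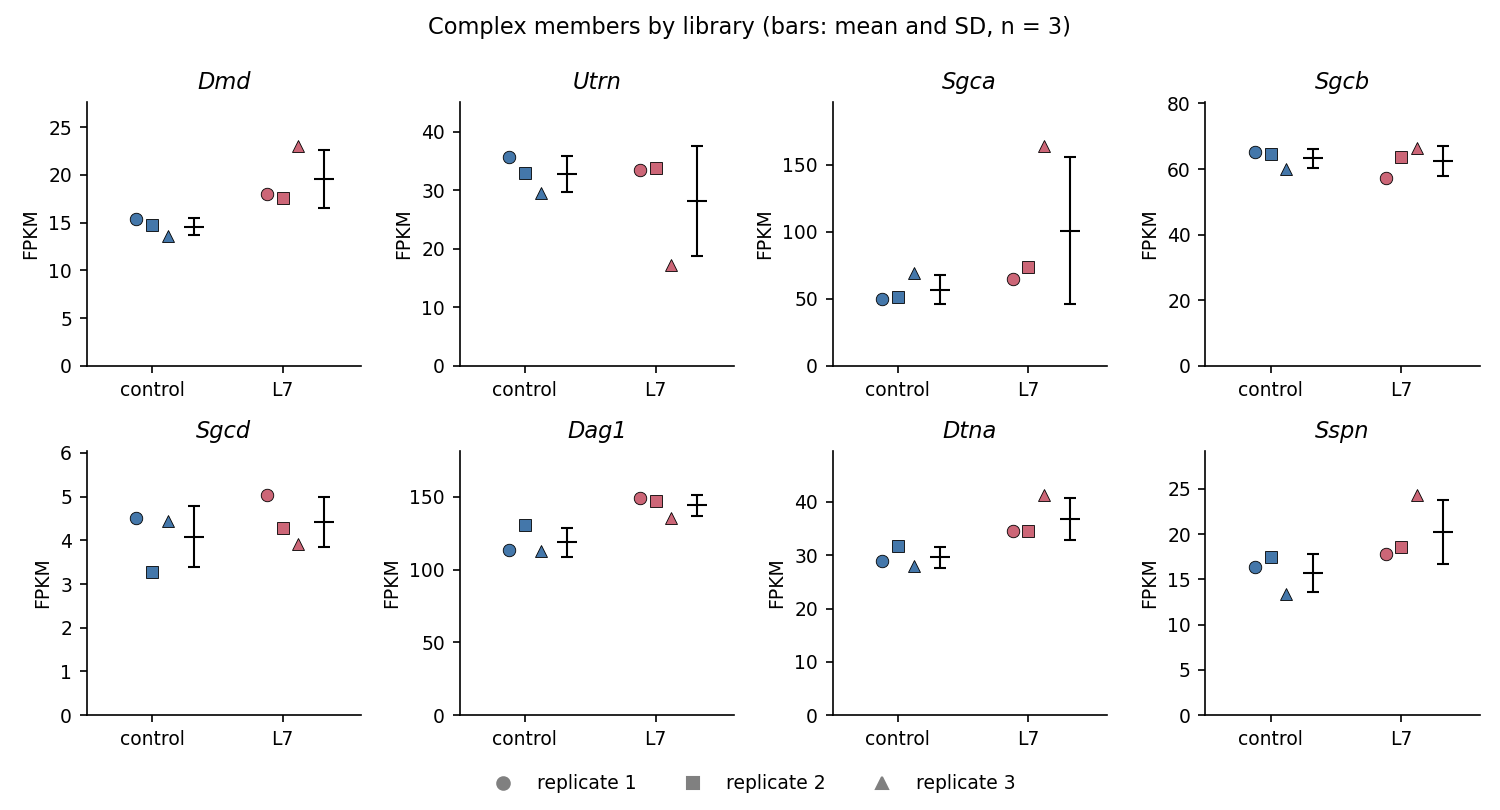
FPKM of each of the 8 members in the 6 libraries (points), with group means and SD, each panel on its own linear axis from 0. Dmd, Dag1, Dtna and Sspn have all 3 L7 libraries above all 3 controls, while L7 replicate 3 is the highest library for Sgca (164) and the lowest for Utrn (17.3).

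Dmd lies at chrX:82948870-85206141 on the plus strand (mm10). Its level was 15.4, 14.8 and 13.6 FPKM in the controls and 18.0, 17.6 and 23.1 FPKM in L7. Every L7 library was above every control, and the highest was L7 replicate 3. The control mean was 14.6 ± 0.922 FPKM and the L7 mean 19.6 ± 3.03 FPKM (SD, n = 3 each). Limma gave a log2(FPKM + 1) difference of 0.39 ± 0.16 (SE; 95% interval 0.026 to 0.76), an unadjusted p of 0.0389 and an adjusted p of 0.580. Without L7 replicate 3 the difference was 0.27. The unadjusted p stayed under 0.05 without L7 replicate 2 or L7 replicate 3, but not without L7 replicate 1 or any of the 3 controls. These values sum all 14 annotated Dmd transcripts, which include short forms that start inside the gene and are made in many cell types, so full-length muscle dystrophin was not measured apart.

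The promoter at the outermost annotated start of Dmd is shown because it holds motifs for factors that drive muscle genes, and the promoters of Utrn and Sgca follow where those genes are described. Promoter windows of 300 bases, from 250 before to 50 after the start, were taken from RefSeq (GRCm38.p6) for 7 of the 8 members, 10 windows in all. Dtna was left out, so the statements on members' windows cover the other 7. Both strands were searched for the E-box CANNTG, bound by basic helix-loop-helix factors such as MyoD, for its form CAGCTG, and for the CArG box of serum response factor and the MEF2 motif, each named here by its usual consensus. The window at chrX:82948620-82948919, plus strand, has its motifs in capitals: 3 E-boxes at positions -173, -61 and 40 from the start, a CArG box at -98 and a MEF2 motif at -244.
Dmd promoter: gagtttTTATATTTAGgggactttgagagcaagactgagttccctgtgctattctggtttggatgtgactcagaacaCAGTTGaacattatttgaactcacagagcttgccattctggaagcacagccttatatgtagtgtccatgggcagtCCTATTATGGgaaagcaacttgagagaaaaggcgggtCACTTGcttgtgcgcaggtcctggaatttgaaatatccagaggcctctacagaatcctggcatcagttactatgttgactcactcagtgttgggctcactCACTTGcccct
Among all 32851 windows of that length, 72.3% held CANNTG, 16.3% CAGCTG, 1.63% a CArG box and 3.19% a MEF2 motif. Of these 7 members, Dmd was the only 1 with a CArG box or a MEF2 motif in a window, and none of their windows held CAGCTG. A further Dmd window, chrX:85048045-85048344, lies at a start inside the gene and held none of these motifs.

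Utrn lies at chr10:12382188-12869365 on the minus strand. Its level was 35.8, 32.9 and 29.6 FPKM in the controls and 33.4, 33.9 and 17.3 FPKM in L7. L7 replicates 1 and 2 lay within the control range and L7 replicate 3 lay far below it. The means were 32.8 ± 3.09 and 28.2 ± 9.43 FPKM (SD, n = 3 each), and the log2 difference was -0.27 ± 0.26 (SE; limma adjusted p 0.628). Without L7 replicate 3 the sign turned, to 0.041. Utrn was also lowest in that library after rescaling by the median of ratios, where its log2 difference over all libraries was -0.098. The window at chr10:12861686-12861985, minus strand, was picked for its 7 E-boxes (in capitals, where neighbouring matches share bases). That was the most among the members searched, which left out Dtna, and 0.177% of all windows held at least as many. This window lies inside the gene as GENCODE annotates it, at the start that RefSeq gives, so the outermost GENCODE start of Utrn was not searched. Several of the matches lie in a CA-rich stretch.
Utrn promoter: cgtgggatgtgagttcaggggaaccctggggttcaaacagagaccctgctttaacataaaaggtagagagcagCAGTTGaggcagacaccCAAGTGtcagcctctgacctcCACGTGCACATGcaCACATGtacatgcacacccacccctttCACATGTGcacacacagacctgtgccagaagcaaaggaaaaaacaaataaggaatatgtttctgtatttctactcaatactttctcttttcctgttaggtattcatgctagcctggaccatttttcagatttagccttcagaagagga
Each match was counted once, since CANNTG reads the same on both strands.

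The ratio of utrophin to dystrophin within a library does not depend on how libraries are scaled. Dividing Utrn FPKM by Dmd FPKM gave 2.32, 2.23 and 2.18 in the controls and 1.85, 1.92 and 0.750 in L7. The controls lay close together, and every L7 library was below all of them. The log2 ratio was 1.16 ± 0.046 in controls and 0.47 ± 0.77 in L7 (SD, n = 3 each; difference -0.69, exact permutation p = 0.1, two-sided, adjusted p 0.6 over 12 ratios). An exact test of 3 against 3 over 20 assignments cannot go below 0.1, so the design could not pass the threshold. Without L7 replicate 3 the groups still did not overlap, but the difference was -0.25. By reads alone, Utrn had 2.85, 2.74 and 2.68 reads per Dmd read in the controls and 2.28, 2.36 and 0.922 in L7.

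**Figure D2:**
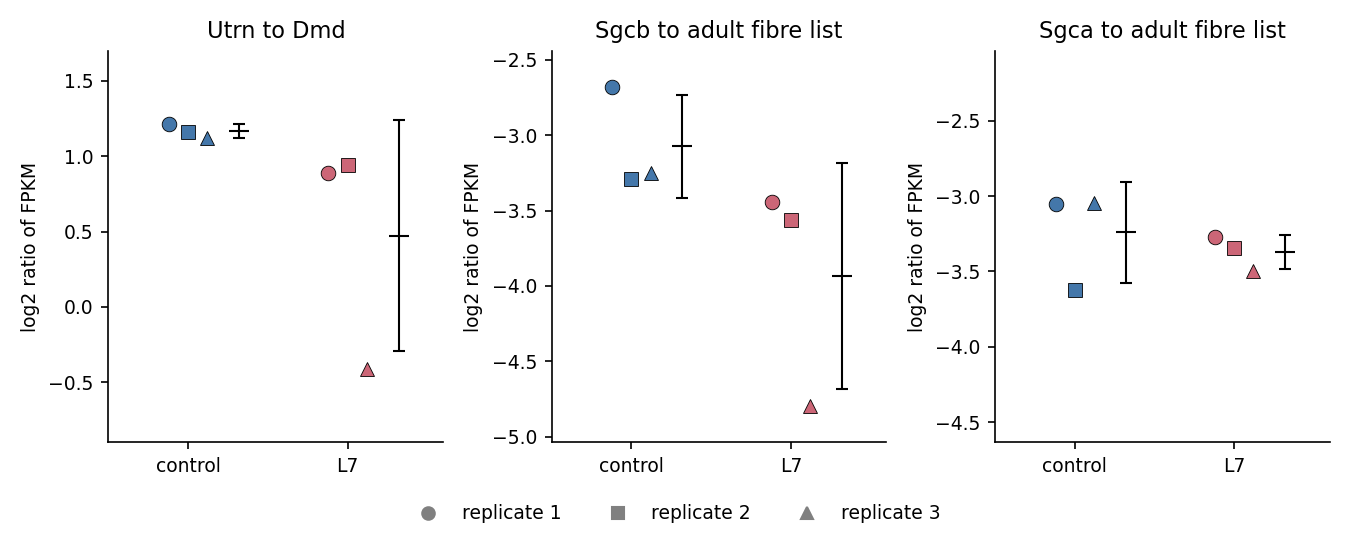
Log2 ratios within each library (points), with group means and SD, on vertical axes of equal span. The panels show Utrn to Dmd, then Sgcb and Sgca each to the mean of the adult fibre genes. Utrn to Dmd averages 1.16 in the controls, and all 3 L7 libraries lie below every control, with L7 replicate 3 lowest at -0.41.

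Dag1 lies at chr9:108204634-108263958 on the minus strand and encodes both dystroglycan chains, which are cut from a single precursor. It was the most abundant member, at 113, 130 and 113 FPKM in the controls and 149, 147 and 136 FPKM in L7. All L7 libraries were above all controls, and L7 replicate 3 was the lowest of the L7 libraries as deposited. The means were 119 ± 10.0 and 144 ± 7.30 FPKM (SD, n = 3 each). The log2 difference was 0.28 ± 0.14 (SE; 95% interval -0.050 to 0.61; limma adjusted p 0.580), and 0.32 without L7 replicate 3. After rescaling by the median of ratios L7 replicate 3 was instead the highest library, and the difference was 0.45 with it and 0.35 without it, so the place of that library within L7 turned on the scaling while the non-overlap with controls did not.

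Sgca, alpha-sarcoglycan, is made in striated muscle and lies at chr11:94962791-94976327 on the minus strand. Its level was 50.3, 51.2 and 69.2 FPKM in the controls and 64.6, 74.0 and 164 FPKM in L7. Control replicate 3 overlapped the L7 range, and L7 replicate 3 was far above every other library. The L7 mean was 1.77-fold the control mean with that library and 1.22-fold without it. The log2 difference was 0.71 ± 0.35 (SE; 95% interval -0.11 to 1.52; limma adjusted p 0.580), and 0.29 without that library. The window at chr11:94976278-94976577, minus strand, is shown for comparison with Dmd and Utrn. It has 2 E-boxes in capitals, at positions -86 and 27, and neither of the other motifs.
Sgca promoter: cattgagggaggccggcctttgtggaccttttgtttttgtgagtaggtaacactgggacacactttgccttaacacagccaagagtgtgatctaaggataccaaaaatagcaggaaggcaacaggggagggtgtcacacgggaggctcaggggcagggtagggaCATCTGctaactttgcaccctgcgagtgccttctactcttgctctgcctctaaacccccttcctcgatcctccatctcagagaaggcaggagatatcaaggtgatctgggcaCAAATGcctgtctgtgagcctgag
Relative to Sgce, epsilon-sarcoglycan, its widely expressed relative, the Sgca ratio was 2.77, 2.83 and 5.42 in the controls and 4.20, 4.73 and 12.3 in L7. The groups overlapped (log2 difference 0.84, exact permutation p = 0.3, adjusted p 0.6).

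Beta-sarcoglycan, delta-sarcoglycan and sarcospan complete the membrane subcomplex. Sgcb lies at chr5:73632749-73647790 on the minus strand, and was at 65.1, 64.6 and 60.0 FPKM in the controls and 57.3, 63.5 and 66.5 FPKM in L7. The groups overlapped, and the log2 difference was -0.02 ± 0.13 (SE; 95% interval -0.33 to 0.29; limma adjusted p 0.939). Its sign turned after rescaling by the median of ratios, to 0.15. Sgcd lies at chr11:46896253-47988969 on the minus strand and was the least abundant member, at 4.51, 3.28 and 4.45 FPKM in the controls and 5.04, 4.29 and 3.91 FPKM in L7. It rested on 150 to 263 reads per library, and its log2 difference was 0.095 ± 0.18 (SE; 95% interval -0.32 to 0.51; limma adjusted p 0.780). Sspn, sarcospan, a protein that crosses the membrane several times and stabilises the sarcoglycans, lies at chr6:145931641-145965223 on the plus strand. Its level was 16.4, 17.5 and 13.4 FPKM in the controls and 17.8, 18.6 and 24.3 FPKM in L7. The Sspn groups did not overlap, but control replicate 2 and L7 replicate 1 were close neighbours. Its log2 difference was 0.34 ± 0.18 (SE; limma adjusted p 0.580), and 0.20 without L7 replicate 3. The opposite-strand gene Sspnos covers 1.38% of Sspn exon bases, and no source used here says whether reads were counted by strand.

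Dtna, alpha-dystrobrevin, binds dystrophin and syntrophins inside the membrane and lies on chromosome 18 from 23415135 to 23659715 on the plus strand. Its level was 29.0, 31.8 and 28.0 FPKM in the controls and 34.5, 34.6 and 41.3 FPKM in L7. L7 replicates 1 and 2 were nearly equal and both were above the highest control. The log2 difference was 0.30 ± 0.14 (SE; 95% interval -0.025 to 0.63; limma adjusted p 0.580), and 0.22 without L7 replicate 3. Relative to Dtnb, beta-dystrobrevin, which is known mainly from other tissues, Dtna was 7.61, 5.64 and 7.32 in the controls and 7.64, 7.28 and 14.8 in L7, and the groups overlapped (exact permutation p = 0.4, adjusted p 0.6).

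**Figure D3:**
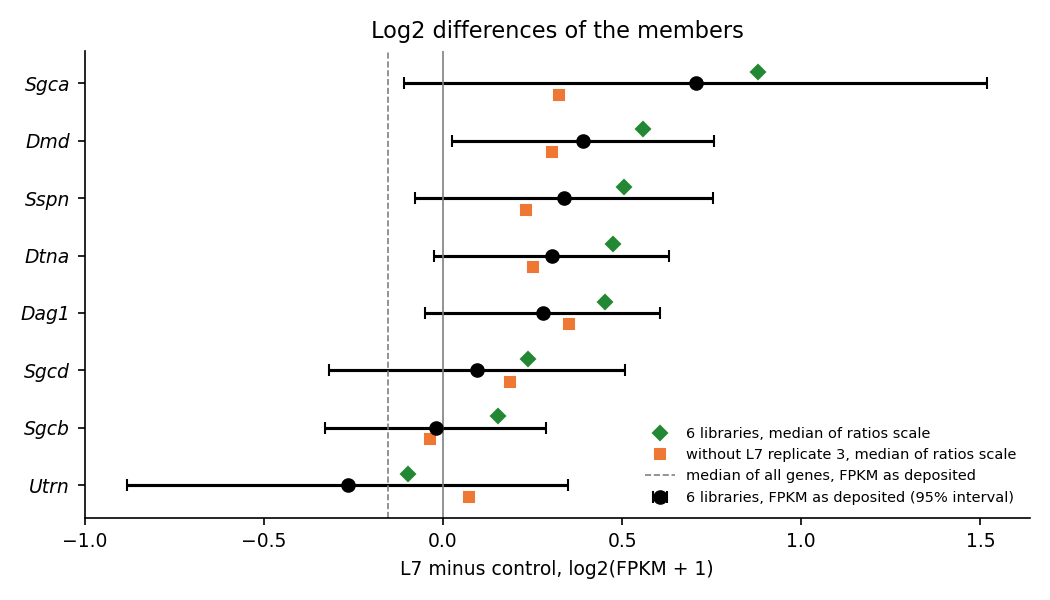
Log2 differences, L7 minus control, of the 8 members from limma with 95% intervals, beside median of ratios values with all libraries (diamonds) and without L7 replicate 3 (squares); the dashed line is the median of all genes (-0.15). Dmd is the 1 member whose interval (0.026 to 0.76) lies above 0, and Utrn is at -0.27 as deposited and at 0.072 on the squares.

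The order of the members' levels depended on the gene length behind FPKM. For 84.7% of 17495 genes with several transcripts, the length used in the deposited values was within 0.5% of the mean length of the annotated transcripts, and for 3.10% within that of the longest. For Dmd this length was 2888 bases, against 14910 for the longest of 14 transcripts, and for Utrn 3549 against 12382. As deposited, control levels ran in the order Dag1 (119), Sgcb (63.2), Sgca (56.9), Utrn (32.8), Dtna (29.6), Sspn (15.7), Dmd (14.6) and Sgcd (4.08 FPKM). Sgcb and Sgca, Utrn and Dtna, and Sspn and Dmd overlapped as neighbours in that order. Scaled to the longest transcript, Dmd was at 2.83 and Utrn at 9.39, below Dtna at 12.1, and the order became Dag1, Sgca, Sgcb, Sspn, Dtna, Utrn, Dmd and Sgcd. A ratio of FPKM between libraries does not depend on the length, but a difference of log2(FPKM + 1) does for genes at low levels, since a longer length brings the values closer to the added 1.

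**Figure D4:**
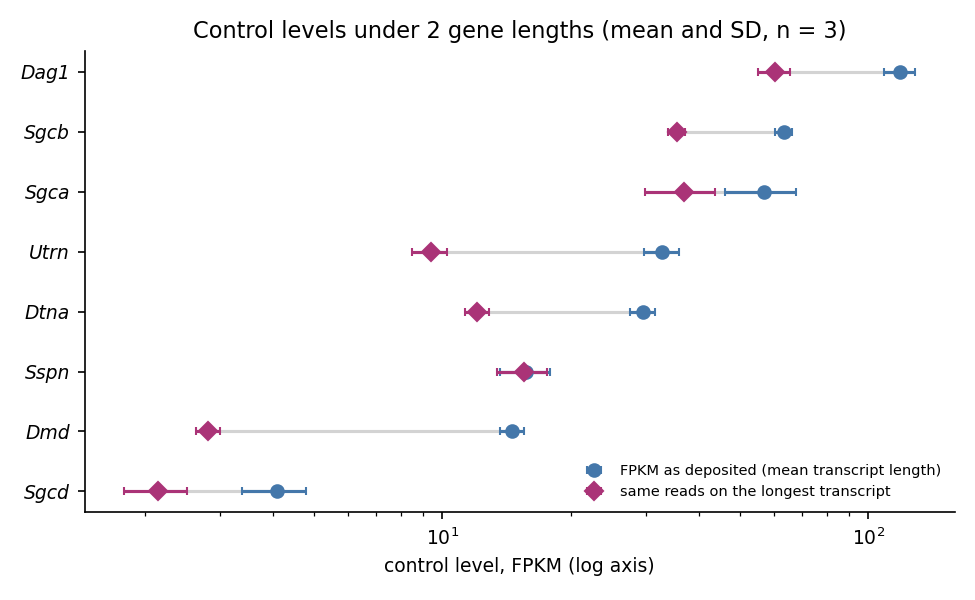
Control levels of the 8 members as deposited and scaled to the longest annotated transcript, on a labelled log axis. Dmd goes from 14.6 to 2.83 and Utrn from 32.8 to 9.39, while Sspn, whose transcript lengths are alike, stays near 15.5.

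Among 16 other subunits and partners tested of 19 listed, 8 were higher and 8 lower in L7, none passed limma, and the median log2 difference was 0.05. After rescaling by the median of ratios 12 were higher and 4 lower. Of all genes tested, 29.2% were higher as deposited and 49.6% after that rescaling. In 4 of the 16 partners every L7 value was above every control, against 5.49% of all genes tested. Of these 4 partners, 3 are described here. Nos1, the neuronal nitric oxide synthase that the complex holds at the membrane, was at 2.38, 3.64 and 2.91 FPKM in the controls and 4.77, 3.79 and 11.7 FPKM in L7. Nos1 was highest in L7 replicate 3, as Sgca was. Lama2, the laminin chain that dystroglycan binds, was at 16.5, 17.4 and 12.7 FPKM in the controls and 19.7, 18.7 and 18.6 FPKM in L7. Plec, plectin, which links desmin filaments to the complex, was at 84.9, 85.9 and 85.5 FPKM in the controls and 111, 109 and 103 FPKM in L7 (0.33 ± 0.13, SE). Bgn, biglycan, the most abundant partner, was at 1338 ± 153 FPKM in controls and 1226 ± 415 FPKM in L7 (SD, n = 3 each). Sgcz and Sntg1 were at 0 FPKM in every library and stayed below the filter.

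Of 17 enzymes that build the laminin-binding sugars of dystroglycan, 10 were higher and 7 lower (11 and 6 after rescaling), and the median was 0.05. Groups did not overlap in 1 of the 17 with L7 higher and in 1 with L7 lower, against 5.49% and 13.7% of all genes tested. B4gat1, which primes those chains, was at 13.7, 16.6 and 15.5 FPKM in the controls and 16.9, 17.2 and 17.0 FPKM in L7. Gmppb, which makes the mannose donor, was at 16.2, 17.2 and 16.6 FPKM in the controls and 12.6, 14.1 and 6.59 FPKM in L7, so that every L7 value was below every control (log2 difference -0.61 ± 0.26, SE; limma adjusted p 0.580). The most abundant, Pomgnt1, differed by 0.23 and Dpm3 by -0.26. Among 23 adhesion and costamere genes 13 were higher and 10 lower (19 and 4 after rescaling), with a median of 0.04. In 3 of the 23 every L7 value was above every control, against 5.49% of all genes tested. Des, desmin, went from 1402 ± 292 to 2235 ± 590 FPKM and Fhl1 from 674 ± 157 to 1269 ± 625 FPKM (SD, n = 3 each), both without overlap and neither past limma.

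**Figure D5:**
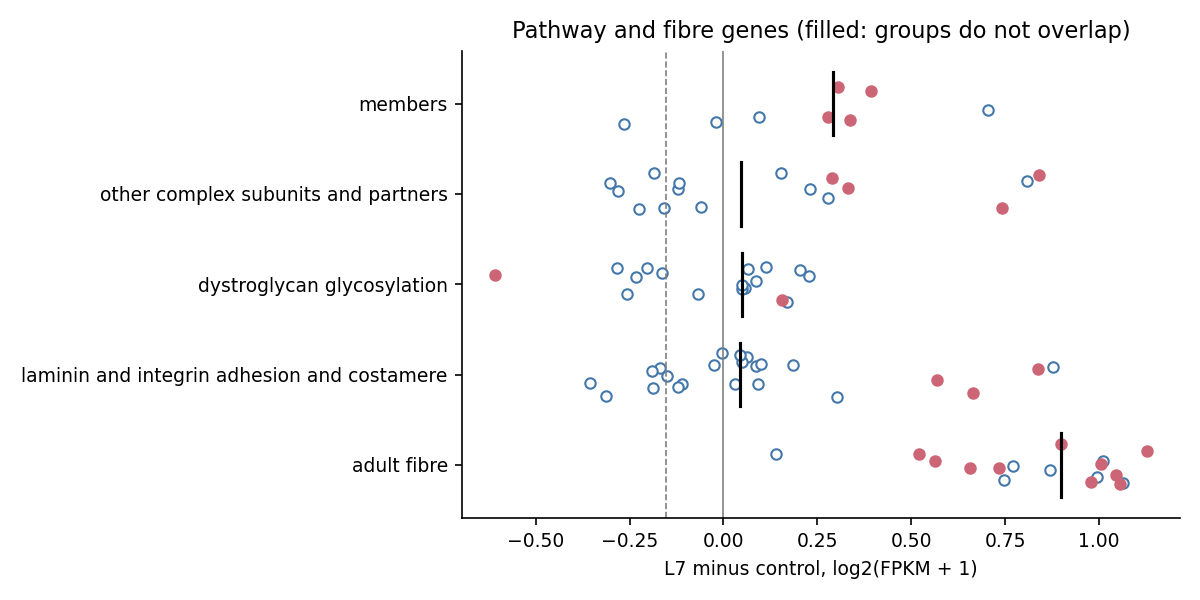
Log2 differences, L7 minus control, of each gene in the pathway and fibre lists, 1 point per gene, with the list medians; filled points mark groups that do not overlap and the dashed line the median of all genes (-0.15). Adult fibre genes lie furthest to the right (median 0.90), above the members (0.29) and the other complex partners (0.05).

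All 17 adult fibre genes tested were higher in L7 on both scales, and none passed limma. As deposited, 10 of them did not overlap between groups, against 5.49% of all genes tested with L7 higher. Their median was 0.90, and 0.37 without L7 replicate 3. Acta1, skeletal actin, was at 8169 ± 2123 FPKM in controls and 18978 ± 12770 FPKM in L7, and Mylpf, a fast myosin light chain, at 8871 ± 731 and 15027 ± 7431 FPKM (SD, n = 3 each). The geometric mean over the list was 417, 632 and 571 FPKM in the controls and 624, 751 and 1850 FPKM in L7. Set against that mean within each library, Sgca was the steadiest member, at log2 ratios from -3.63 to -3.04 over the 6 libraries, and its groups overlapped (difference -0.13, exact permutation p = 0.6). Sgcb lay below the control range in every L7 library (difference -0.86, exact permutation p = 0.1, adjusted p 0.6), and the ratios of the other 6 members overlapped between groups, with a difference of -0.43 for Dmd and the widest for Utrn. None of the 12 ratios tested passed.

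Markers of other cell types were also counted, and their part in the results was not tested. Several counts of their direction moved with the scaling, so each is given as deposited and then after rescaling by the median of ratios. Regenerating fibre genes were higher in 2 and then 5 of 9 (median -0.15, and 0.23 without L7 replicate 3), and satellite cell genes in 2 and then 4 of 7. Summed macrophage markers ranged from 3710 to 5496 FPKM in controls and 2721 to 5207 FPKM in L7, with L7 replicate 3 lowest as deposited but level with control replicate 2 after rescaling, and 10 and then 5 of 11 were lower. Endothelial markers, from cells that also make utrophin, summed to 203 to 244 FPKM in controls and 212 to 233 FPKM in L7, the highest L7 value being in replicate 3, and 5 and then 0 of 8 were lower. Fibro-adipogenic markers were lower in 6 and then 2 of 8, neutrophil markers in 5 of 6 on both scales, lymphocyte markers in 6 and then 5 of 8, and pericyte markers in 3 and then 1 of 6. All 4 Schwann cell markers tested of 7 and all 3 adipocyte markers tested of 6 were higher on both scales, and Lep was the 1 marker listed at 0 in a library.

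The 2 most abundant markers of each list are given on the FPKM as deposited, and they do not stand for their lists. Actc1, the cardiac actin of young fibres, was at 1902 ± 406 FPKM in controls and 3229 ± 359 FPKM in L7, and Myl4 at 622 ± 182 and 614 ± 161 FPKM (SD, n = 3 each). By log2 difference, Myod1 and Vcam1 of satellite cells were at -0.25 and -0.67, Lyz2 and C1qa of macrophages at -0.073 and -0.023, and Col1a1 and Col3a1 of fibro-adipogenic cells at -0.057 and -0.13. Cdh5 and Pecam1 of endothelium were at 0.015 and -0.16, Acta2 and Rgs5 of pericytes at -0.58 and -0.059, and Pmp22 and Mbp of Schwann cells at 0.15 and 0.28. The immune genes S100a8 and S100a9 were at -0.77 and -0.96 and Gzmb and Nkg7 at -1.27 and -0.59, while Fabp4 and Cfd of adipocytes were at 0.35 and 1.19. The signs of Myl4, Lyz2, C1qa, Col1a1, Col3a1, Pecam1 and Rgs5 turned after rescaling, and none of these genes passed limma.

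The series title links Linc-smad7 to the microRNA miR-125b, which represses transcripts through short matches in their 3' UTRs, so the members were searched for its seed site. The mature sequence from RefSeq has its seed, bases 2 to 8, in capitals, and each site is shown with CTCAGGG, the match to that seed, in capitals.
miR-125b-5p: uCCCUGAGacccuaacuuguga
Dmd 3' UTR, position 3450: ggggatttaaaCTCAGGGaatcatgcttg
Dag1 3' UTR, position 1507: ctgtcccatgaCTCAGGGgcacccactct
Dag1 3' UTR, position 2485: gagaagggcagCTCAGGGaacctctgcag
The longest annotated 3' UTR held 1 site in Dmd and 2 in Dag1 and none in the other 6 members. Of 12735 genes tested with a UTR, 17.0% held the 7-base match. Dmd and Dag1 were among the 4 members without overlap between groups, as were Dtna and Sspn, which hold no match. A match of letters is no measure of binding, and the microRNA itself was not measured in polyadenylated RNA.

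By the root mean square difference between centred log2(FPKM + 1) profiles over the 6 libraries, the genes most like Dmd were Mrm3 (0.021), Pdp1 (0.040) and Sirt3 (0.042), against a median of 0.41 over 13036 genes. Those most like Utrn were Slf2 (0.028), Smarcc1 (0.029) and Heatr5a (0.034), against a median of 0.27. For Sgca they were Ephx2 (0.070), Golga7b (0.070) and Macrod1 (0.075), against a median of 0.73. Golga7b lay at 0.36 to 2.95 FPKM, where the added 1 narrows differences. For Dag1 the nearest were Fto (0.026), Adcy9 (0.039) and Fbxl22 (0.039), against a median of 0.31. No member was among the 3 nearest of Dmd, Utrn, Sgca or Dag1, and genes picked as nearest are close by selection.

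The authors' deposited table gave the same sign for 7 of 8 members as the FPKM as deposited and the opposite for Sgcb, at 0.18. That table rests on normalised group means, and after rescaling the FPKM by the median of ratios Sgcb was also higher in L7, at 0.15. Its log2 fold changes were 0.64 for Dmd, -0.082 for Utrn, 1.10 for Sgca, 0.29 for Sgcd, 0.46 for Dag1, 0.52 for Dtna and 0.58 for Sspn. The authors' deposited table held 359 genes, 1.13% of 31690, with an unadjusted p under 0.05, and 0 members were among them, the lowest member p being 0.0942 for Dmd. The adjusted p in the authors' deposited table was 1 for all 8 members. No member was listed as a changed gene under any of 4919 terms in the authors' deposited Gene Ontology table. Its sarcolemma term held 2 of the 268 changed genes, Bin1 and Stbd1, and 114 of the 21889 background genes.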

How the data were processed

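Gene expression was measured in 6 libraries, 3 control and 3 L7. The authors deposited 1 FPKM value per gene and library. A second table holds, per the file headers, group means of a normalised signal, a log2 fold change and a p-value, all deposited by the authors. The submitters' processing notes name mm10, HISAT2 2.0.4, TopHat2 2.0.12, DESeq 1.12.0 and Bowtie2 2.2.3, without roles. No source used here gives the counting program or its strand setting.

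Symbols and coordinates came from GENCODE M21. Genes with a mean of at least 1 FPKM were tested on log2(FPKM + 1) by limma 3.58.1 in R 4.3.3, fitting a trend of variance on mean (two-sided), with Benjamini-Hochberg adjustment over all 14788 genes and a threshold of 0.05. Folds on that scale understate changes of low genes. Whole reads were recovered from the FPKM steps and the deposited signal, and 152096 of 152096 values above 0 came within 0.05 of a whole number. Ratios were tested by exact permutation over all 20 assignments in Python 3.11.15, with Benjamini-Hochberg adjustment in statsmodels 0.14.6. Limma was also run on simulated reads with the same random spread set for every gene and no outlying library. That run cannot say how limma behaves with a library such as L7 replicate 3. Motifs were searched in RefSeq promoters, and the microRNA seed in GENCODE 3' UTRs.

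The members and lists were chosen with earlier results of these data known. Named were all members, genes past limma (there were 0) or else the 2 most abundant genes of each list, complex and glycosylation genes without overlap (1 of these genes and 1 of the 12 ratios are not reported here), and the 3 nearest profiles of 4 members. Flnc, the other adhesion gene without overlap, falls outside that rule. Alternatives were a pseudocount of 0.1, no filter, median of ratios scaling, voom, array weights, sex as a covariate, a replicate block and leaving out each library.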

Additional observations from a re-analysis of the deposited data

How the results depend on the processing

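Of 249 values recomputed under the alternatives, 235 kept their direction and their side of the threshold or stayed within the spread. The exact tests of the ratios could not cross the threshold under any alternative, so that part of the count was fixed in advance. A kept direction also left the size free to change, as for Sgca, at 0.71 with all libraries and 0.29 without L7 replicate 3. No member passed the threshold under any of the 14 alternatives to its log2 difference, and adjusted p ranged from 0.387 to 0.873 for Dmd, Sgca, Dtna and Sspn and from 0.390 for Dag1. Signs turned for Sgcb (0.15 with median of ratios scaling, 0.16 with voom; -0.066 to 0.040 leaving out 1 library), for Utrn (0.072 with median of ratios scaling and without L7 replicate 3; -0.42 to 0.041 leaving out 1 library) and for Sgcd (-0.023 without control replicate 2). The members' median was 0.46 with median of ratios scaling, 0.48 with voom, 0.19 with array weights and 0.21 to 0.35 leaving out 1 library. Genes past the threshold numbered 1 with median of ratios scaling and without L7 replicate 3, 3 with array weights and 0 to 1 leaving out 1 library. The cause was not tested.

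Replicate numbers did not pair the libraries (correlations of same-numbered deviations 0.32, -0.065 and 0.087). With the replicate block Dmd was 0.39 (limma adjusted p 0.504), 0 members were called, and Utrn to Dmd was -0.69 (exact sign-flip p = 0.25, the smallest it can give). With 3 libraries a group, the 95% interval of 7 of 8 members held 0, and Sgcd had 150 to 263 reads per library. The array weights fit stopped before it converged.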

Other observations

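Within the male libraries (control replicates 1 and 3 against L7 replicate 1) and within the female ones (control replicate 2 against L7 replicates 2 and 3), 7 of 8 members were higher in L7 in each, with no test. The share of all genes higher in L7 within each sex was not computed. Dmd differed by 0.30 and 0.42, Dag1 by 0.40 and 0.12, Sgca by 0.13 and 1.09, and Utrn by 0.038 and -0.43 on the log2 scale. With sex as a covariate, 0 members and 379 genes had an unadjusted limma p under 0.05.

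Aqp4, the water channel held at the membrane by syntrophin, was at 0.14, 0.46 and 0.81 FPKM in the controls and 0.34, 0.54 and 6.84 FPKM in L7, and was singled out after its values were seen. Ilk, an adhesion gene, was at 0.25 to 0.49 FPKM, and the opposite-strand gene Taf10 covers 76.7% of its exon bases. Tnnc2, a fibre gene, was at 0.98 to 2.3 FPKM, and Ube2c on the opposite strand covers 74% of its exon bases. Both were also chosen after their values were seen.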
